A study of Mus musculus with 2 samples.

Results

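The genes described here act in homing and adhesion of T cells and of other cells. The list held chemokine receptors, sphingosine 1-phosphate (S1P) and oxysterol receptors, a selectin with its ligand, CD44, and integrin chains. It comprised 40 of 21938 protein-coding genes, and chemokine receptors of the distal chromosome 9 cluster were not among them. A peak of PPARγ binding was assigned to a gene when that gene had the nearest transcription start site (TSS) of any protein-coding gene, within 100 kb of the peak centre. By this rule 8 of the 40 genes held 8 of the 2537 peaks, 1 each. The list of genes was drawn up with earlier results of these data known.

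The peaks come from mouse TH2 cells of the C57BL/6J strain, differentiated in culture from naive CD4 T cells. The cells received, on days 1 and 2, a retrovirus that expressed PPARγ carrying a TY1 epitope tag, and chromatin was taken on day 4. The study set 1 library precipitated with an antibody to the tag against 1 input library from cells with the same retrovirus, so the map is that of the introduced receptor and has no replicate. No sample without the retrovirus was analysed here, and the labels do not say whether a PPARγ ligand was added. By the file header, the precipitated library held 10229438 tags, of which 54617 lay in peaks. The file gives positions only, with no tag count for single peaks and no expression values. So neither the strength of a peak nor the labelled cell type could be checked, and no value below bears on whether a gene was transcribed.

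PPARγ is a nuclear receptor that binds DNA as a pair with RXR. The element that the pair binds, DR1, holds 2 copies of AGGTCA in the same direction with 1 base between them. T cells cross a vessel wall in steps: selectins and their ligands slow the cell, chemokine receptors signal to integrins, and integrins then hold the cell to the wall and to tissue matrix. S1P receptors steer cells out of lymphoid organs, and CCR4 and CCR8 are chemokine receptors well known on TH2 cells.

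The windows below are the parts of the genome under 6 of the 8 peaks, with those of Itgav and Itgb3 left out. Chosen were the peak in a member's own promoter, the S1P receptor peak and the peak near an LFA-1 chain gene. The other 3 windows are those with an AP-1 site. Each is the plus strand of GRCm38 (mm10), 200 bases around the peak centre, read 5′ to 3′. Capitals mark matches to the AP-1 site (TGACTCA or TGAGTCA, either strand), bound by FOS and JUN factors, and to the GATA site (AGATAA or TGATAA, either strand).
Ccr8, chr9:120091262-120091461: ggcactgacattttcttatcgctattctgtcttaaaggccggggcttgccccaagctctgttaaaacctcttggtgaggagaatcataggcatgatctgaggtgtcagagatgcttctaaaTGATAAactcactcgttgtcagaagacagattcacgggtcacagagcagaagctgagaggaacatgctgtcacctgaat
S1pr1, chr3:115761729-115761928: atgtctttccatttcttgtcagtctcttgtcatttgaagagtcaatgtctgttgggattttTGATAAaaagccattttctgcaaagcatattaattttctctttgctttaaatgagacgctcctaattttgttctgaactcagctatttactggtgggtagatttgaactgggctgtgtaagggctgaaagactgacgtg
Itgal, chr7:127287943-127288142: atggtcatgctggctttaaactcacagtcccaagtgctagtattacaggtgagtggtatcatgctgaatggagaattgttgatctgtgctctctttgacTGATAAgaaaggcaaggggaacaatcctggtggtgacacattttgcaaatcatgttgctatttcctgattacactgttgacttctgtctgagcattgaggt
Itga1, chr13:115109218-115109417: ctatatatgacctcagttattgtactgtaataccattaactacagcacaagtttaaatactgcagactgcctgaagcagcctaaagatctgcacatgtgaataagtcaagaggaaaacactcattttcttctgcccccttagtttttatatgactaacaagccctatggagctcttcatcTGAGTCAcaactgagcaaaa
Itga6, chr2:71657472-71657671: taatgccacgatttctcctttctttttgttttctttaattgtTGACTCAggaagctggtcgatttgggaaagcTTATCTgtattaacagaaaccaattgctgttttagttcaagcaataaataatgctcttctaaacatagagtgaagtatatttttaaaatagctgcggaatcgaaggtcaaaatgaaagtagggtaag
Itgb1, chr8:128592318-128592517: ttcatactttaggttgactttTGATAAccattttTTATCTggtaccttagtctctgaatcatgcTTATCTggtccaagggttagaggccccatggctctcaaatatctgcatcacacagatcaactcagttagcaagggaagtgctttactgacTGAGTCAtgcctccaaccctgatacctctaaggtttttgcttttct

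Integrins held most of the peaks. An assigned peak was present at 6 of 18 integrin genes, 1 of 13 chemokine receptor genes (Gpr15, a homing receptor of the colon, is counted with them), 1 of 6 S1P and oxysterol receptor genes, and 0 of 3 genes in the group of Selp, Selplg and Cd44. Over all 40 genes the share was 20%, against 7.92% of all protein-coding genes. The share was 33.3% for integrins, 16.7% for S1P and oxysterol receptors and 7.69% for chemokine receptors, the last being near the background. When start sites of noncoding genes and pseudogenes also competed for each peak, 1 of 18 integrin genes (5.56%) and 2 of the 40 genes (5%) held one, against 5.62% of all protein-coding genes, so the excess was not present under that rule. The classes are small and their members were chosen with results known, so the difference between them was described and not tested. None of the 40 genes had more than 1 peak, while 1.60% of all protein-coding genes had 2 or more.

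The sequence nearest to each gene's start sites bounds where its assigned peaks can lie. This territory had a median of 55.4 kb for the 40 genes and 45 kb for all protein-coding genes. It was 108 kb for the 8 genes with a peak and 50.8 kb for the other 32; over all protein-coding genes it was likewise 104 kb with a peak and 42.1 kb without. Per Mb of territory the 40 genes held 2.60 peaks, the integrins 3.73, the S1P and oxysterol receptors 2.21, the chemokine receptors 1.30, and all protein-coding genes 1.32. These densities rest on protein-coding start sites alone.

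**Figure D1:**
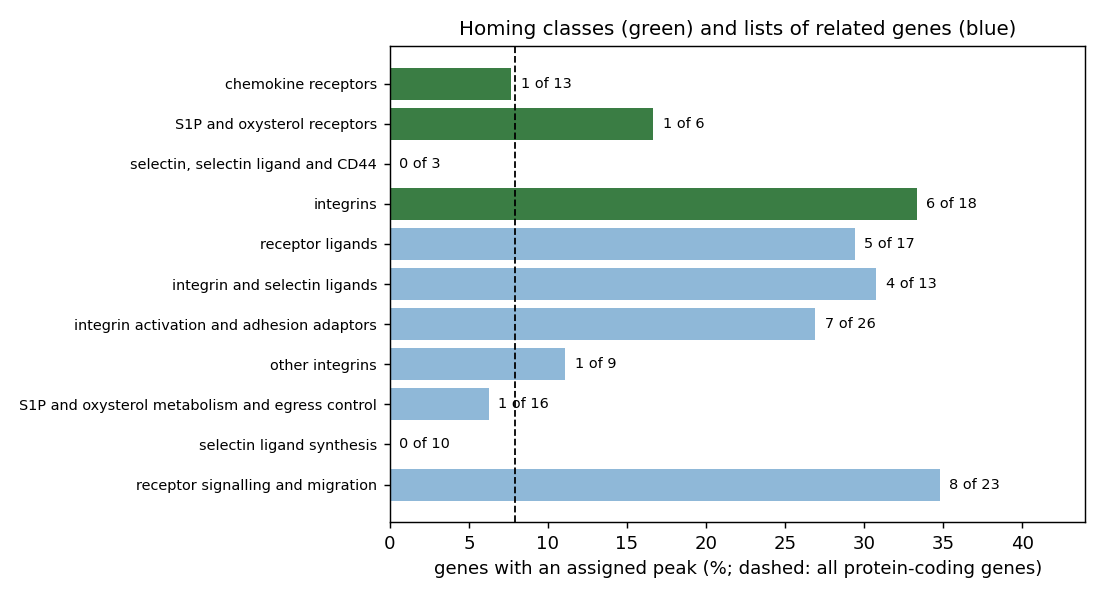
Percentage of genes with a peak assigned within 100 kb, for the 4 homing classes (green) and 7 lists of related genes (blue), with counts beside each bar. The dashed line is the share of all protein-coding genes, 7.92%; integrins lie above it and chemokine receptors just below it.

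Ccr8 encodes the receptor for CCL1 and CCL8 and was the only chemokine receptor gene of the 13 with an assigned peak. The peak lay at chr9:120091276-120091448 (mm10), centred 752 bp upstream of the single annotated TSS, in the promoter as defined by 1000 bp upstream to 100 bp downstream of a TSS. No other member had a peak so close to a start site. The 200-base window, printed above, held neither DR1 nor AP-1, and its TGATAA lay 23.5 bp from the peak centre. The best DR1-like stretch in it, GGGTCACAGAGCA at chr9:120091418-120091430, had 3 mismatches.

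The same peak was also the nearest one to Cx3cr1, which encodes the fractalkine receptor of cytotoxic T cells and monocytes. Cx3cr1 runs away from Ccr8 on the other strand, and the peak lay 21.5 kb upstream of its nearest TSS with no protein-coding start site between them. Under the nearest-start-site rule the peak counts for Ccr8 alone.

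The other receptors known from TH2 cells and skin homing had no peak nearby. The nearest peak to Ccr4 was 1430 kb away, and that to Ccr10, which encodes the receptor for the skin chemokine CCL27, was 547 kb away. Of the receptors of inflamed and mucosal tissue, Ccr6, found on TH17 cells, was 291 kb from a peak and Cxcr3, the TH1-associated receptor for CXCL9 and CXCL10, 4870 kb. Cxcr3 lies on the X chromosome, which held 22 peaks, or 0.129 per Mb, against 0.628 to 1.56 per Mb on the autosomes. Cxcr1 and Cxcr2, neighbouring genes for neutrophil receptors on chromosome 1, were 4500 and 4460 kb from the nearest peak. Together with Ccr4 these were the 4 members with no peak within 1 Mb, and 21.3% of all protein-coding genes had none within that distance.

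Ccr7, which encodes the receptor that brings T cells into lymph nodes, had no assigned peak but 2 peaks upstream, at 45.3 and 52.4 kb. Both were nearer to Smarce1, a chromatin remodelling gene, at 13 and 5.92 kb, and no other protein-coding gene starts between Ccr7 and these peaks. The peak at 45.3 kb, chr11:99200323-99200495, was the only one within 100 kb of a member that held both a DR1 match (AGGCCAAAGATCA, 2 mismatches) and an AP-1 site. Its window is shown because it carries both elements, in capitals with DR1 first.
Ccr7 upstream, chr11:99200309-99200508: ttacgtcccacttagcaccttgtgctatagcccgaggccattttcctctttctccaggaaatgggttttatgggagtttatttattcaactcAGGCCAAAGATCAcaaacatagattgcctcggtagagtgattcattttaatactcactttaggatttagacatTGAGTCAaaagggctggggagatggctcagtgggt

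The other receptors of lymphoid tissue were further from any peak. The distances were 147 kb for Cxcr5, which directs cells to B cell follicles, 602 kb for Cxcr4, the CXCL12 receptor, and 887 kb for Gpr183, which encodes the oxysterol receptor EBI2. Ackr3, the atypical scavenger receptor for CXCL12, was 473 kb from a peak. Gpr15 had 2 peaks at 41.0 and 56.5 kb downstream, both nearer to Cpox, a gene of haem synthesis, at 0.203 and 7.71 kb. The peak at 56.5 kb held the DR1 match AAGGCAGAGGTCA, with 2 mismatches.

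**Figure D2:**
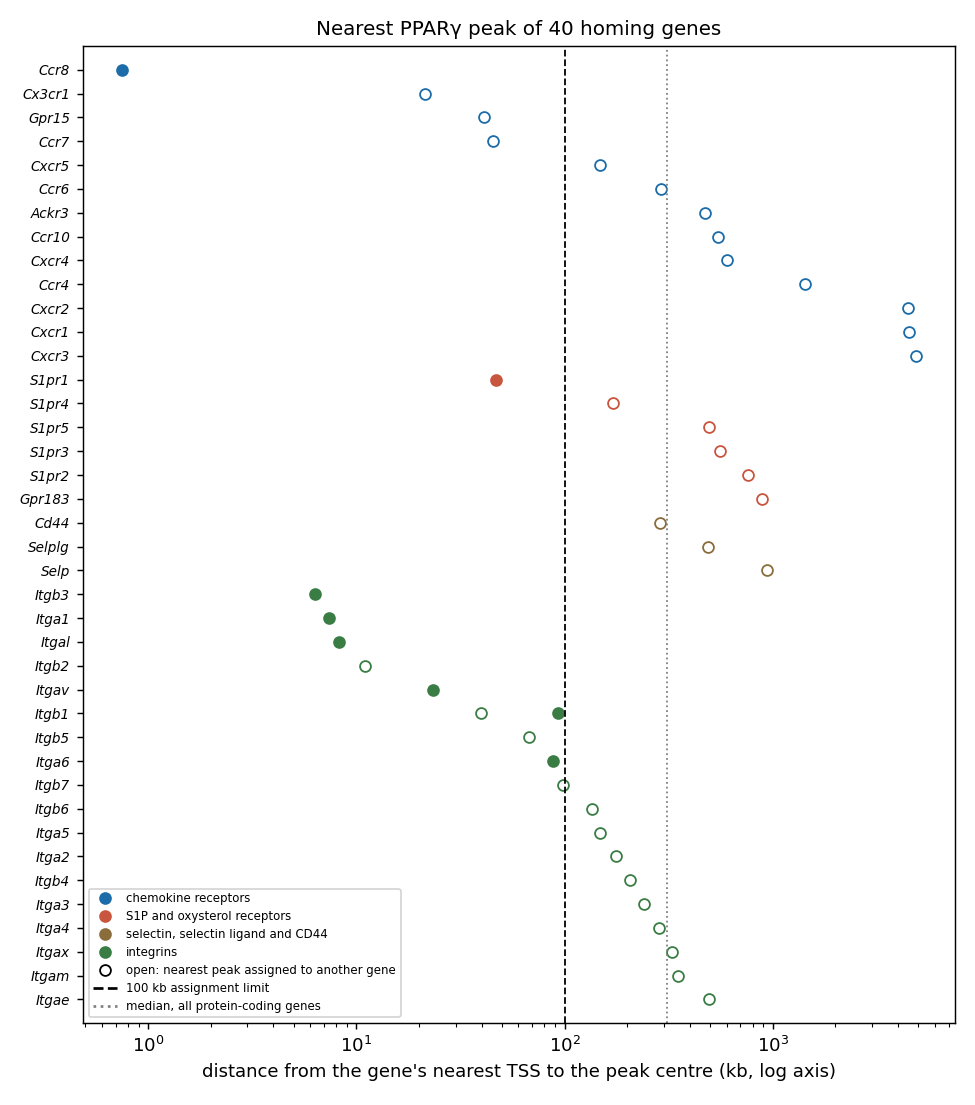
Distance in kb (log axis) from each gene's nearest TSS to its assigned peak (filled) and, where the nearest peak belongs to another gene, to that peak (open), for the 40 genes by class. The dashed line is the 100 kb limit and the dotted line the median nearest distance over all protein-coding genes, 310 kb; only Ccr8 lies under 1 kb, and 4 chemokine receptor genes lie beyond 1000 kb.

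Among the S1P receptor genes, S1pr1, whose product draws T cells from lymph nodes into lymph, was the only 1 of 5 with an assigned peak. That peak, chr3:115761743-115761915, was intergenic, 46.8 kb upstream, and its centre lay in repeat-masked sequence, as did 16.1% of all assigned peaks. Of the bases of the S1pr1 peak, however, only 12.1% were repeat-masked. The window held a TGATAA 36.5 bp from the centre and a TGGAAA (the NFAT site) but no DR1 or AP-1 match, and its best DR1-like stretch had 5 mismatches. A second peak had S1pr1 as its nearest gene at 151 kb, outside the limit; it held no DR1 or AP-1 match. S1pr4, also an S1P receptor gene of lymphocytes, was 172 kb from a peak. S1pr5 of natural killer cells, S1pr3 and S1pr2 were 493, 556 and 765 kb from one.

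Genes of the rolling step had no peak within 100 kb, and of all protein-coding genes 24.9% had one. Cd44, the hyaluronan receptor gene raised on activated T cells, was 289 kb from the nearest peak. Selplg, which encodes the selectin ligand PSGL-1, was 490 kb away, and Selp, the gene of P-selectin of platelets and endothelium, 944 kb away.

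Integrins are pairs of an α and a β chain. Of the leukocyte chains (Itga4, Itgae, Itgal, Itgam, Itgax, Itgb2 and Itgb7), 1 of 7 genes had an assigned peak. Of Itgb1 and the α chains that pair with it in matrix binding (Itga1, Itga2, Itga3, Itga5 and Itga6), 3 of 6 had one. Of Itgav and Itgb3 to Itgb6, 2 of 5 had one. The share of all protein-coding genes was 7.92%. These role groups were formed after the counts were known and carry no test.

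Itgal encodes the α chain of LFA-1, the integrin with which T cells bind ICAM-1. Its peak, chr7:127287957-127288129, was centred 8.22 kb upstream of the TSS. It lay 172 bp from the TSS of Gm31897, a long noncoding RNA, and so was classed as a promoter peak of that transcript. A TGATAA lay 1.5 bp from the peak centre, and the best DR1-like stretch, AGAGCACAGATCA, had 3 mismatches. Itgb2, the gene of the β chain of the same integrin, had a peak 11 kb upstream (chr10:77519129-77519301). That peak was 3.43 kb from Fam207a, to which it was assigned, and held a GATA match but no DR1 or AP-1.

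The other leukocyte integrin genes had no assigned peak. Over all protein-coding genes the median distance to the nearest peak was 310 kb. Itgam and Itgax, which lie on the chromosome of Itgal and encode α chains of myeloid cells, were 349 and 327 kb from one. The gut homing chain gene Itga4 was 283 kb away, and Itgae, which encodes the E-cadherin binding chain CD103, 495 kb. Itgb7, the gene of their shared partner, had a peak 97.9 kb upstream, with 5 other protein-coding genes starting between them and Myg1 the nearest at 1.83 kb. This was the peak closest to the 100 kb limit on its inner side among all peaks near a member, and 93.2 kb for Itgb1 was the largest distance among the assigned ones.

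Itgb1 encodes the β chain shared by most matrix-binding integrins. Its assigned peak, chr8:128592332-128592504, was intergenic and 93.2 kb upstream. The window held an AP-1 site 57.0 bp from the centre and 3 GATA matches, the most of any member's window. A second peak was nearer, 39.9 kb downstream of the closest Itgb1 TSS and 31.0 kb beyond the 3′ end of Itgb1. It lay in an intron of Ccdc7a, to which it was assigned at 23.2 kb. The centre of this peak was repeat-masked, and it held no DR1, AP-1 or GATA match.

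Itga1 encodes the collagen receptor chain CD49a of tissue-resident T cells. Its peak, chr13:115109232-115109404, was intergenic and 7.35 kb upstream, with the AP-1 site 83.0 bp from the centre and a single AGGTCA 90.5 bp from it. The gene Gm49395 was almost as near, at 7.40 kb. Itga2, which encodes another collagen receptor chain and lies beside Itga1, was 177 kb from this same peak.

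Itga6 encodes a laminin receptor chain. Its peak, chr2:71657486-71657658, was intergenic and 88.0 kb upstream, with an AP-1 site 55.0 bp and an AGATAA 24.5 bp from the centre. That distance runs to the start of a noncoding transcript of Itga6; from the coding transcripts of the basic annotation the peak was 129 kb away, and Itga6 then held no peak. Itga3, another laminin receptor chain gene, and Itga5, the fibronectin receptor chain gene, were 242 and 148 kb from a peak.

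Itgav and Itgb3 encode the chains of the vitronectin receptor, and each had a peak. The Itgav peak, chr2:83700996-83701168, was 23.3 kb upstream of Itgav and 34 bp from the TSS of the noncoding antisense gene Gm13686. Its window, the most GC-rich of the 8 at 54.0%, held no DR1, AP-1 or GATA match. The Itgb3 peak, chr11:104614269-104614441, lay in the first of 14 introns, 6.36 kb downstream of the TSS. It was the only 1 of the 8 peaks inside a member's gene body, whereas 53.6% of all assigned peaks lay inside the gene they were assigned to. Its window held AGATAA 18.5 bp from the centre and TGTGGT, the core of the RUNX site.

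The partners of αv in epithelial cells had no assigned peak. Itgb5 had a peak 67.8 kb upstream, in an intron of Heg1 and 5.35 kb from the nearest TSS of that gene, with the DR1 match AGGGCAGAGGTCA (1 mismatch). Itgb6 was 135 kb and Itgb4, which pairs with the α6 chain, 206 kb from the nearest peak.

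**Figure D3:**
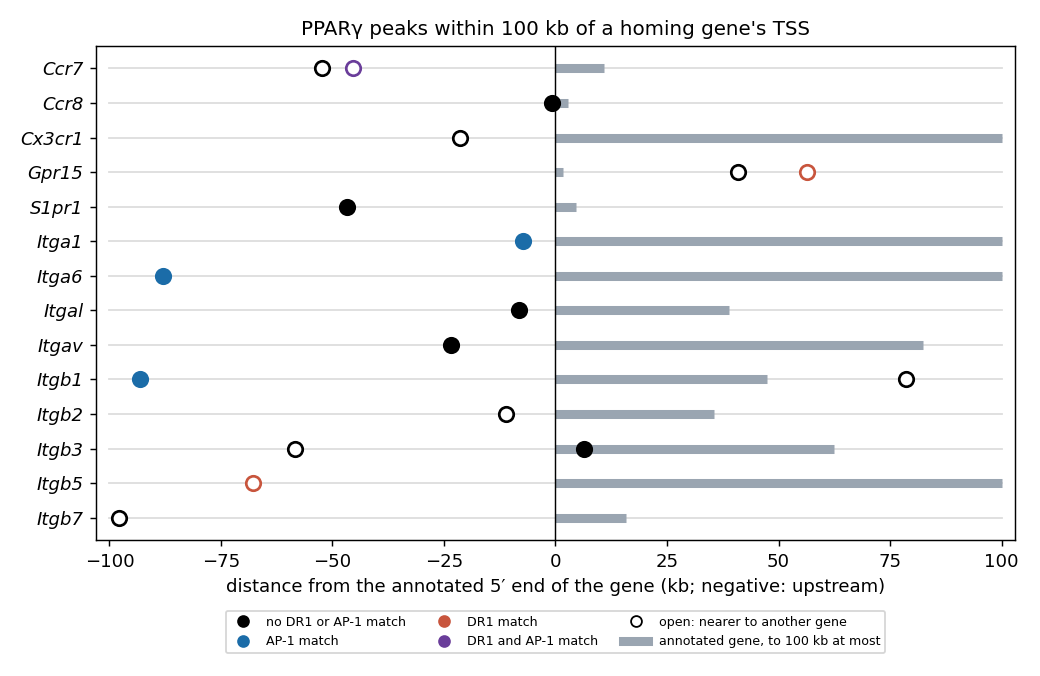
Peaks within 100 kb of a TSS of a member, placed by distance in kb from the annotated 5′ end of the gene (negative is upstream), with grey bars for the gene cut at 100 kb, filled circles for assigned peaks and open circles for peaks nearer to another gene. Of the filled circles 7 lie upstream, and DR1 matches occur only among the open circles, at Ccr7, Gpr15 and Itgb5.

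Taken as a set, the 8 assigned peaks lay mostly upstream and outside genes. Of the 8, 7 were upstream of the start site, against 50.0% of all assigned peaks. By annotation 3 were promoter peaks (2 of them of noncoding transcripts), 4 were intergenic and 1 was intronic. Over all assigned peaks the shares were 11% promoter, 31.7% intergenic, 52.2% intronic and 5.07% exonic. The median distance from the start site was 15.8 kb, with a range of 0.752 to 93.2 kb, against a median of 10.8 kb over all assigned peaks. Within 10 kb of a start site 4 members (Ccr8, Itgb3, Itga1 and Itgal), or 10%, had a peak, against 4.31% of all protein-coding genes. Within 50 kb 6 members, or 15%, had one, against 7.20%. A noncoding or pseudogene start site lay nearer than that of the member for 6 of the 8 peaks. At S1pr1 (46.7 against 46.8 kb) and Itga1 (6.81 against 7.35 kb) the gap was small, and at Ccr8 and Itgb3 no gene of any type started nearer.

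A further 6 members (Ccr7, Cx3cr1, Gpr15, Itgb2, Itgb5 and Itgb7) had a peak within 100 kb that was nearer to another gene. With them 14 of 40 members had a peak within 100 kb, or 35%, against 24.9% of all protein-coding genes. The median distance to the nearest peak was 224 kb for the 40 genes, 117 kb for the integrins, 473 kb for the chemokine receptors and 310 kb for all protein-coding genes.

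DR1 was searched on both strands, like every motif here, and 2 mismatches were allowed over both copies of AGGTCA. It matched in 0 of the 8 assigned windows (exact 95% binomial interval 0 to 36.9%) and in 19.8% of all peaks. Thus the 8 peaks are too few to tell their DR1 share from that of all peaks. The best DR1-like stretch had 3 mismatches in 2 windows (Ccr8 and Itgal), 4 in 5 windows and 5 in S1pr1; over all peaks 28.5% had 3, 37.0% had 4 and 14.4% had 5.

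AP-1 matched in 3 of 8 windows, all of integrin genes (37.5%, exact 95% binomial interval 8.52 to 75.5), against 17.9% of all peaks. Those of Itga6 and Itgb1 lay over 50 kb out, and within 50 kb 1 of 6 windows matched (16.7%), against 17.9% of all peaks at that range. A GATA match was present in 6 of 8 windows (75.0%, exact interval 34.9 to 96.8), at all but Itga1 and Itgav, against 26.4% of all peaks. The 6 windows with a match spanned 33.5 to 46.5% GC, and 29.6% of the 1622 peaks in that range held a GATA match. The range was set by the matching windows themselves, so it is no independent control. GATA had the highest share of the 12 motifs searched, in only 8 windows, and no test was run on these shares. The GATA factor GATA3 is the regulator of TH2 fate; a match of 6 letters is a description of sequence and does not show that it was bound. A single AGGTCA matched at Itga1 and Itga6, 25.0% against 27.8%. TGTGGT (RUNX) and TGGAAA (NFAT) matched in 1 window each, 12.5% against 18.6% and 19.3%. No window matched AGGAAGT (ETS), TTC and GAA with 3 bases between (STAT), GTAAACA (FOXO), GGGTG followed by TGG (KLF), or the repeats of AGGTCA with 2 (DR2) or 5 bases (DR5) between, again allowing 2 mismatches. All peaks held these at 7.96%, 9.89%, 3.82%, 1.89%, 4.45% and 3%. The DR1 pattern contains AGGTCA, so these matches are not independent.

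**Figure D4:**
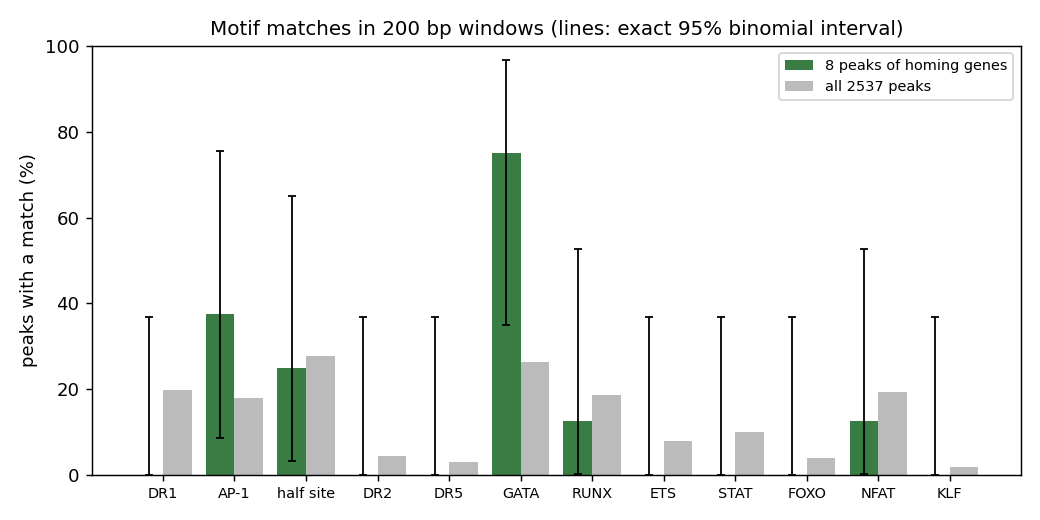
Percentage of 200-base windows with a match to each of 12 motifs, for the 8 assigned peaks (green, with exact 95% binomial intervals as lines) and all 2537 peaks (grey). DR1 is at 0 for the 8 peaks, GATA at 75.0% and AP-1 at 37.5%, with intervals that span 34.9 to 96.8% and 8.52 to 75.5%.

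Genes that act with these receptors were counted in 7 lists drawn up with the members. Of 114 matched genes 26 had an assigned peak (22.8%), against 7.92% of all protein-coding genes. When noncoding genes and pseudogenes also competed for each peak, 23 of the 114 held one, against 5.62% of all protein-coding genes. Territory was not compared for the lists, and their shares were not tested. DR1 was present in 11 of their 41 peaks (26.8%) and AP-1 in 6 (14.6%), against 19.8% and 17.9% of all peaks.

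Ligands of the receptors had a peak at 5 of 17 genes, each with 1 peak. Cxcl9, the gene of a CXCR3 ligand, had an intronic peak 488 bp from its TSS with the DR1 match AGGTCAAAGGCAA, 2 mismatches, while its receptor gene Cxcr3 had none within 1 Mb. Cxcl2, Cxcl1 and Cxcl5, genes of neutrophil chemokines read by CXCR2, had intergenic peaks at 5.04, 14.0 and 13.7 kb, with DR1 at Cxcl1 and AP-1 at Cxcl2. Cxcl13, the gene of the CXCR5 ligand, had one at 26.9 kb with DR1. No peak was assigned to Ccl17 or Ccl22, whose products bind CCR4, nor to Ccl1 or Ccl8, whose products bind CCR8.

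Integrin and selectin ligands had a peak at 4 of 13 genes. These were Icam2, an LFA-1 ligand gene (566 bp, intronic), the laminin chain genes Lama5 (1.90 kb) and Lamc1 (2.60 kb), with 2 peaks each, and the collagen gene Col4a1 (10.5 kb, with DR1). The integrin adaptors had 7 of 26. Skap1, whose product couples the T cell receptor to LFA-1, had 5 peaks, the nearest at 5.57 kb with an AP-1 site, and its partner gene Fyb had 1 at 6.20 kb. Cyth1 and Rap1b, genes of regulators of LFA-1 adhesion, had their nearest peaks at 9.74 and 12.1 kb. Parva, an actin-linking adaptor gene, had 2 peaks, the nearer at 17.4 kb with the exact DR1 consensus AGGTCAAAGGTCA.

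Of the other integrin genes 1 of 9 had a peak, Itga11 at 37.5 kb. The list of S1P and oxysterol metabolism and egress control had 1 of 16: Ch25h, which encodes the first enzyme toward the GPR183 ligand, had a peak at 16.9 kb with the exact DR1 consensus AGGTCAAAGGTCA (chr19:34458256-34458268). Gpr183 itself had none within 100 kb. Selectin ligand synthesis had 0 of 10.

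Receptor signalling and migration genes had 8 of 23. Grk2, which encodes a kinase that desensitises chemokine receptors, had an intronic peak 580 bp from its TSS with the DR1 match AGGACAGAGGACA. The related kinase gene Grk5 had 2 peaks, the nearer at 5.28 kb. Rac1, a small GTPase gene of the leading edge, had a peak at 5.11 kb. Rgs1, whose product damps chemokine receptor signals, had 4, the nearest at 7.73 kb. Dock8, the gene of an exchange factor for migrating lymphocytes, had 3, the nearest at 9.91 kb and 2 of them with DR1.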

How the data were processed

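One peak list was analysed, from 1 TY1 ChIP library called against 1 input library. The authors aligned reads to mm10 with Bowtie2, kept uniquely mapped tags and called peaks with HOMER, per the submitters' processing notes and the series' design text, which name no versions. Per the file headers, each peak needed 8 tags at a false discovery rate of 0.001 and 4 times the density of the input and of the local 10000 bp. Unique mapping leaves out sequence with an exact copy elsewhere, not all repeat-masked sequence. The deposited score is 1 in every row and ranks no peak, so each of the 2537 peaks of 173 bp counted once. No test was run: 1 list without replicate gives counts, medians and the same over all genes or peaks. Intervals cover counting error only.

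Positions count from 1. TSSs were those of all transcripts of protein-coding genes in GENCODE vM21 (GRCm38, the assembly of mm10); all 40 symbols matched. Sequence came from the RefSeq FASTA of that assembly, and windows were 200 bp. Python 3.11.15, numpy 2.4.6, pysam 0.24.0, scipy 1.17.1 and matplotlib 3.10.9 were used. Motif search and assignment were tested on simulated data. The members, lists and motifs were chosen with earlier results of these data known. All members are named; of each list, up to 5 genes with the nearest peaks, and ligand genes without a peak beside their receptors. Alternatives changed the assignment rule, annotation, peak subset, window and mismatches; those for the GATA site were chosen after seeing the data. The input library has no values of its own here.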

Additional observations from a re-analysis of the deposited data

How the results depend on the processing

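The number of members with a peak followed the assignment rule. Limited to 10 kb, 4 members held 4 peaks, with 3 integrins and 0 S1P and oxysterol receptors, and 13 of 114 list genes had a peak. The members' share was 10%, against 4.31% of all protein-coding genes. When every gene with a TSS within 100 kb took the peak, 14 members, 4 of them chemokine receptors, held 17 peaks. The members' share was then 35%, against 24.9% of all protein-coding genes, and 49 of 114 list genes had a peak. When noncoding genes and pseudogenes competed for the nearest TSS, 2 members, Ccr8 and Itgb3, held 2 peaks, with 1 integrin and 0 S1P and oxysterol receptors (5% of members and 5.56% of integrins, against 5.62% of all genes). The first part of the file, split by row at its middle, gave 4 members with 4 peaks, 3 of them integrins. It gave 0 S1P and oxysterol receptors and 18 of 114 list genes. This was 10% of members, against 4.45% of all protein-coding genes. The second part gave 4 members with 4 peaks, 3 integrins, 0 chemokine receptors and 12 of 114 list genes. That was again 10% of members, against 4.34% of all protein-coding genes. Rows of the file do not follow genomic position, and what ordered them was not determined. Without peaks centred in repeats the S1P and oxysterol class had 0. With 1 mismatch allowed, AP-1 matched in 87.5% of the 8 windows and 65.5% of all peaks. AP-1 within 50 kb was 16.7% against 17.9% of all peaks, inside the wide interval of the 8 windows but no longer above the background. GATA, recomputed after seeing the data, was 66.7 to 75% in the deposited intervals, in wider windows and within 50 kb, where all peaks gave 23.5, 43.0 and 25.4%. Of 82 recomputed values for the class, peak, list, DR1, AP-1 and GATA results 24 moved, and 58 stayed within 1.5 times the count or within the interval. For some of them staying says little. The group of Selp, Selplg and Cd44 was 0 throughout, with its nearest peak 289 kb away, and the intervals for DR1, AP-1 and GATA were wide. The other 9 motifs were not recomputed. Ccr8 and Itgb3 alone kept a peak under every rule and subset except the parts of the file, and 6 members without a peak gained one when every gene took it. Few tags fell in peaks (0.53%), so absence of a peak at this depth is not absence of binding. No stricter threshold could be tried, since rows hold no strength. No paired analysis was possible because there is 1 peak list.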
